A study of Mus musculus with 280 samples.

Results

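Zfp352, Usp17lc, AF067063, Gm4340, Sp110 and Tmem92 are 6 genes linked to the endogenous retrovirus MERVL that were taken by name from the 11076 genes measured, and all 6 passed the filter on low values in the comparisons between stages. Gm4340 and Usp17lc passed it only through the 2-cell stage, where they were high. The RNA of the 6 genes was followed through preimplantation development in single mouse embryos. All 280 embryos were of the FVB strain and came from in vitro fertilization (IVF) with oocytes of 20 females on a control diet, and all were cultured in KSOM medium. The sires were fed either a control diet or a low protein diet, with 10 males on each. The control sires gave 41 embryos at the 2-cell stage, 42 at the 4-cell stage, 2 at the 8-cell stage, 38 morulae, 14 blastocysts and 2 late blastocysts, and the low protein sires gave 39, 40, 2, 35, 22 and 3. The study bears on how the father's diet is read out in embryos. Each value is the RNA level of a gene in a whole embryo in TPM, a scale on which the transcripts of an embryo are corrected for length and brought to a common total, so fewer cells of a type and less RNA per cell cannot be told apart. Several embryos shared a sire, and the p-values below treat embryos as independent and measure the spread between embryos.

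MERVL is an endogenous retrovirus whose long terminal repeats serve as promoters in the totipotent 2-cell mouse embryo, when the zygotic genome first becomes active. Some host genes are transcribed from such repeats or from similar elements, and the transcription factor DUX switches many of them on together with MERVL itself. The set is also known from rare 2-cell-like cells in cultures of embryonic stem cells, and it is normally shut down as the embryo divides further. Zfp352 encodes a zinc finger protein, Usp17lc belongs to the Usp17-like family of enzymes that remove ubiquitin, Sp110 is a member of the SP100 family of nuclear body proteins, and Tmem92 encodes a transmembrane protein. AF067063 and Gm4340 are genes of the 2-cell embryo without an established function.

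The sequences at the start sites are shown because they are where the genes can be compared without any reading of RNA. RefSeq promoter windows (build GRCm38.p6) were found for 4 of the 6 genes, namely Sp110, Zfp352, Usp17lc and Gm4340. Each stretch below holds 110 bases before the start site and 20 bases from it on, 5′ to 3′. The Sp110 stretch is chr1:85603872-85604001 on the minus strand and belongs to the more upstream of 2 Sp110 starts in RefSeq. The others lie at chr4:90218710-90218839 (Zfp352), chr7:103416586-103416715 (Usp17lc) and chr10:104193932-104194061 (Gm4340), each on the plus strand. The upstream Sp110 start lies outside the Sp110 gene span given below, and the Usp17lc start lies within the span of its gene. Which starts are used in these embryos was not measured. Capitals mark the 100-base run that is identical between Sp110 and Gm4340, the motif TATAAGG in Zfp352, and the TATA box TATAAA in Usp17lc.
Sp110, upstream start: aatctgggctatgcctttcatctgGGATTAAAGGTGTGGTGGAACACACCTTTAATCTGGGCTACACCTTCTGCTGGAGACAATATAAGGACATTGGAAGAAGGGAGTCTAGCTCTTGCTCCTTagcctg
Gm4340: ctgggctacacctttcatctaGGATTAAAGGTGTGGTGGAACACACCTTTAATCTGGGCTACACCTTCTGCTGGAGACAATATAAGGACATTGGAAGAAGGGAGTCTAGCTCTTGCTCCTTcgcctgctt
Zfp352: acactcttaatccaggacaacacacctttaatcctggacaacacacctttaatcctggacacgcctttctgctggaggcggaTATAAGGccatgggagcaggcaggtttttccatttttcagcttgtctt
Usp17lc: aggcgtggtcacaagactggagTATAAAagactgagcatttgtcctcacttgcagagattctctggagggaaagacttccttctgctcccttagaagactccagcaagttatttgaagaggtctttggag

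Sp110 and Gm4340 lie on different chromosomes, yet their windows aligned with 236 identical bases, 10 mismatches and 57 gap positions, which is 95.9% identity over the aligned bases. The Zfp352 window aligned with that of Gm4340 over 91 identical bases and 26 mismatches, and with that of Sp110 over 53 identical bases and 11 mismatches. TATAAGG, a motif picked after the windows had been read, began 27 bases before the start site in Sp110, 28 in Zfp352 and 30 in Gm4340. It is present on either strand in 714 of 32851 windows, or 2.17%. The Usp17lc window instead holds TATAAA, 88 bases before its start site, a motif found in 4473 windows (13.6%). The DUX motif, searched as TGATT, any base and AATCA on both strands, is in 11 windows (0.0335%) and in none of the members' windows. The second Sp110 window, at the downstream start, shared no run of 20 bases with another gene's window.

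Near-identical copies bear on how far each value belongs to 1 gene. In the GENCODE vM21 annotation of GRCm38, 98.9% of the 50-base words of the Gm4340 transcripts also occur in transcripts of 39 other genes, among them Gm21312, Gm6763 and Gm8764. For AF067063 the share was 70.7%, all of it in Gm21731, for Usp17lc 44.7% in 7 genes and for Sp110 35.97% in 75 genes. Zfp352 (7.09%) and Tmem92 (1.93%) shared little. It is unknown which gene was credited with a read that matched more than 1. The values of Gm4340, AF067063 and Usp17lc are therefore uncertain as to the copy. The Sp110 value is likewise uncertain as to the gene, for the shared part of its sequence. In that annotation all 6 genes are protein coding: Zfp352 spans 4:90218820-90225702 on the plus strand with 2 exons, Usp17lc 7:103415072-103419880 on the plus strand with 2 exons, AF067063 13:119827961-119830216 on the minus strand with 2 exons, Gm4340 10:104194042-104196522 on the plus strand with 2 exons, Sp110 1:85576899-85598817 on the minus strand with 12 exons, and Tmem92 11:94777217-94782703 on the minus strand with 5 exons.

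In control embryos the summed level of 7 measured 2-cell markers (Zscan4 and Tcstv genes) had a median of 3793 TPM in 2-cell and 19.3 TPM in 4-cell embryos, and 11 oocyte genes summed to 18144 and 339 TPM. The summed level of 6 trophectoderm markers had a median of 11649 TPM in blastocysts against 707 TPM in morulae. The 5 low protein blastocysts of plate 6, a plate with no control blastocyst, stood apart, with a sum of 479 to 1544 TPM, where all other blastocysts had at least 3146 TPM and low protein morulae had a median of 759 TPM. None of 9 cumulus cell markers is listed in the table, so cumulus cells were not assessed. Between 3626 and 10204 genes reached 1 TPM in an embryo. Sequencing depth is unknown, since the table holds no counts.

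At the 2-cell stage all 6 genes were present in every embryo, and Gm4340 had the highest median. Gm4340 had its lowest value at 205, its median at 1081 and its highest at 2441 TPM in control embryos, and 83.9, 949 and 2437 TPM in low protein embryos. AF067063 had 200.2, 649 and 2323 TPM in control and 164, 560 and 3196 TPM in low protein embryos. Both genes thus spanned more than a 10-fold range among embryos of 1 stage, and the diets overlapped almost entirely.

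Sp110 had 166, 535 and 1530 TPM in control and 130.1, 512 and 1863 TPM in low protein embryos. Zfp352 had 20.6, 475 and 1035 TPM in control and 71.5, 401 and 1202 TPM in low protein embryos. The low Zfp352 value of 20.6 TPM was that of a single control embryo, in which 6339 genes reached 1 TPM. The next lowest control embryo had 235 TPM. Tmem92 was lower, with 59.2, 253 and 605 TPM in control and 96.4, 238 and 557 TPM in low protein embryos. Usp17lc was lowest, with 36.9, 126 and 375 TPM in control and 38.9, 101 and 408 TPM in low protein embryos.

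The order of the medians, on the length-scaled TPM level, was Gm4340, AF067063, Sp110, Zfp352, Tmem92 and Usp17lc in both diets. Neighbours in the order overlapped. Within single control embryos Gm4340 exceeded AF067063 in 33 of 41, AF067063 exceeded Sp110 in 32, Sp110 exceeded Zfp352 in 26, Zfp352 exceeded Tmem92 in 34 and Tmem92 exceeded Usp17lc in 38. In low protein embryos these counts were 31, 24, 30, 31 and 37 of 39. In control embryos the mean log2 differences were 0.46 ± 1.08 (SD, n = 41) for the first pair, then 0.31 ± 0.71, 0.30 ± 0.80, 0.82 ± 0.85 and 0.96 ± 0.86, so that in all but the last pair the difference was smaller than its spread over embryos.

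**Figure D1:**
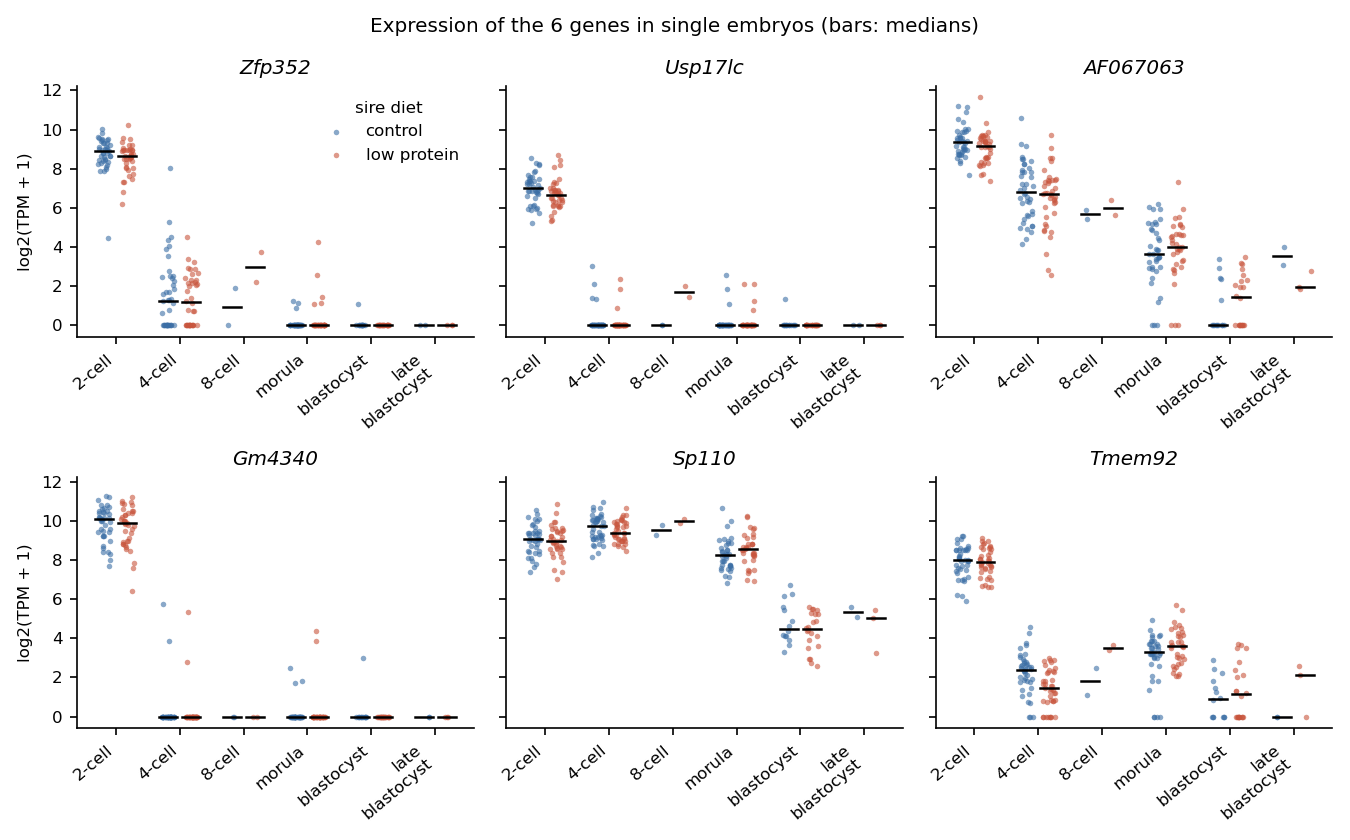
TPM of each of the 6 genes in every embryo by stage, on a log2(TPM + 1) axis, with control and low protein embryos in different colours and a bar at each group's median. Usp17lc and Gm4340 drop to a median of 0 at the 4-cell stage, AF067063 declines over several stages, and Sp110 stays above 100 TPM in every embryo through the morula stage and is at a median of 21.6 TPM in blastocysts.

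One cell division later 5 of the 6 genes had fallen, and Sp110 had not. Gm4340 was listed at 0 in most 4-cell embryos: 4 of 82 reached 1 TPM, with highest values of 53.8 TPM in control and 39.3 TPM in low protein embryos. Usp17lc reached 1 TPM in 6 of 82 embryos and at most 7.06 TPM in control and 4.12 TPM in low protein embryos. No 4-cell embryo of either diet reached the lowest 2-cell embryo for Gm4340, Usp17lc or Tmem92.

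Tmem92 kept a low level, with 0, 4.31 and 22.9 TPM in control and 0, 1.74 and 6.89 TPM in low protein 4-cell embryos. It reached 1 TPM in 37 of 42 control and 26 of 40 low protein embryos. The 2-cell median was 58.8 times the 4-cell median in control and 137 times in low protein embryos. Zfp352 had 0, 1.37 and 264 TPM in control and 0, 1.27 and 21.6 TPM in low protein 4-cell embryos, and 44 of 82 embryos reached 1 TPM but 8 reached 10 TPM. In control embryos 3 of 42 lay at or above the lowest 2-cell value, while in low protein embryos the stages did not overlap. That lowest control value was of the single embryo with 6339 genes. The next lowest control 2-cell embryo had 235 TPM, which only the highest 4-cell value, 264 TPM, passed.

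AF067063 declined less at this step. Its 4-cell values were 16.5, 113 and 1558 TPM in control and 4.85, 102 and 842 TPM in low protein embryos, which overlapped the 2-cell values in both diets. The 2-cell median was 5.75 times the 4-cell median in control and 5.49 times in low protein embryos, and every 4-cell embryo still held AF067063 RNA. Sp110 had 290, 861 and 2001 TPM in control and 357, 674 and 1610 TPM in low protein 4-cell embryos, so its medians were above those of the 2-cell stage in both diets with wide overlap. The order at the 4-cell stage was Sp110, AF067063, Tmem92 and Zfp352, with the other two at a median of 0. Sp110 exceeded AF067063 in 41 of 42 control and 39 of 40 low protein embryos and AF067063 exceeded Tmem92 in all 42 and all 40, but Tmem92 exceeded Zfp352 in only 27 and 18. For this last pair the mean log2 difference was 0.71 ± 1.74 (SD, n = 42) in control and 0.11 ± 1.48 (SD, n = 40) in low protein embryos, and was not tested.

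In limma fits of log2(TPM + 1) across all genes with plate as a covariate, a gene was called at an adjusted p under 0.05 and a log2 change of at least 1. From the 2-cell to the 4-cell stage 5 of 6 members fell in control embryos, where 36.9% of 11054 genes tested fell and 34.4% rose. The same 5 members fell in low protein embryos, where 37.6% of 11062 genes fell and 34.5% rose. Gm4340 and Usp17lc entered these fits through their 2-cell level alone, so their falls start from the group that admitted them. The fitted log2 changes of control and low protein embryos were -9.62 ± 0.20 (SE) and -9.44 ± 0.21 for Gm4340, -7.23 ± 0.25 and -7.09 ± 0.22 for Zfp352, and -6.87 ± 0.15 and -6.70 ± 0.13 for Usp17lc. They were -5.71 ± 0.23 and -6.53 ± 0.20 for Tmem92 and -2.41 ± 0.27 and -2.31 ± 0.28 for AF067063, against medians over all genes of -0.01 and -0.05. The largest adjusted p from limma among these was that of AF067063, 3.11e-15 in control and 2.98e-13 in low protein embryos. For Sp110 the change was 0.36 ± 0.15 (limma adjusted p = 0.0188) in control and 0.38 ± 0.15 (limma adjusted p = 0.0170) in low protein embryos, which was under the size needed for a call.

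A fitted change of a gene that ends at 0 depends on the constant added before the logarithm and is no bound. With 0.1 instead of 1 TPM added, Gm4340 had -12.81 and -12.59, Usp17lc -9.88 and -9.84, Zfp352 -8.72 and -8.54 in control and low protein embryos, and Tmem92 had -7.56 in low protein embryos.

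**Figure D2:**
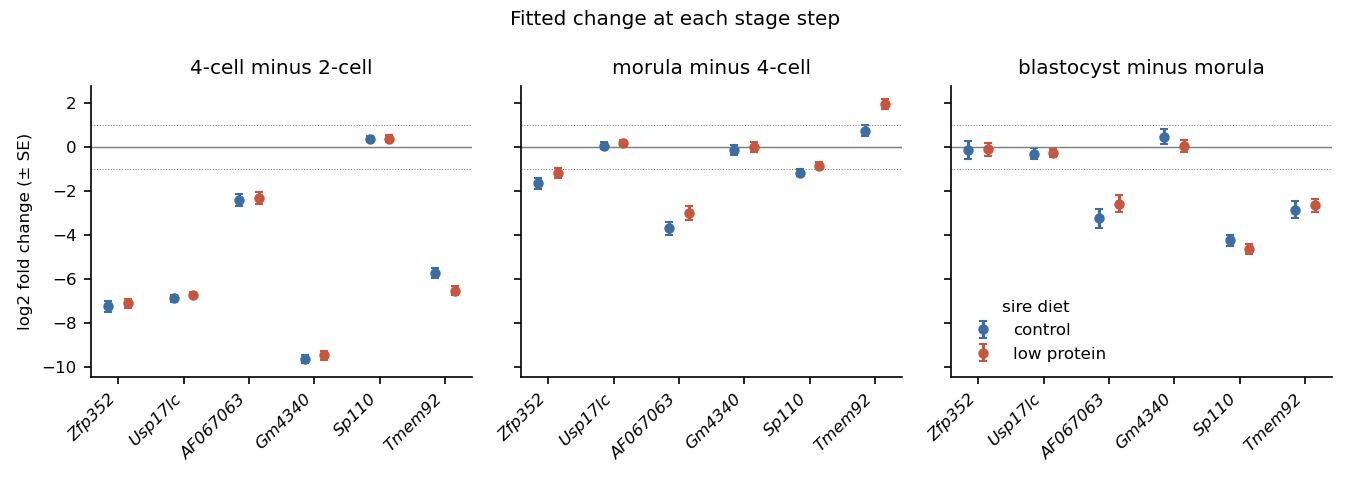
Fitted log2 change of each gene from limma at each step between stages, with bars of 1 SE, control embryos in blue and low protein embryos in red; dotted lines mark the size of 1 needed for a call. Sp110 is the gene above 0 at the first step, and at the last step Sp110, AF067063 and Tmem92 are below -1.

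A few 4-cell embryos lay far above the rest, each for some of the members. A control embryo of plate 1 had 264 TPM of Zfp352, where the other 41 had at most 37.9 TPM, and 1558 TPM of AF067063, where the others had at most 609 TPM. This embryo had Sp110 at 1685 TPM and Tmem92 at 12.4 TPM, and both Gm4340 and Usp17lc were listed at 0. It held 1679 TPM of Usp17lb, a relative of Usp17lc, and 935 TPM of Tdpoz4, another 2-cell gene. Its summed oocyte genes, at 516 TPM, lay within the range of the other control embryos (138 to 1184 TPM), and 8971 genes reached 1 TPM in it.

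The second highest control embryo for Zfp352, at 37.9 TPM, shared the plate and the sire and had 303 TPM of AF067063 and 420 TPM of Usp17lb. The third, at 21.6 TPM, had that sire too and held the highest Gm4340 value, 53.8 TPM. All 14 control 4-cell embryos of plate 1 came from that sire, so plate and sire cannot be told apart here. The median Zfp352 of these 14 was 2.655 TPM. The low protein embryo with the highest Gm4340, 39.3 TPM, had the highest AF067063 of its group, 842 TPM. In that embryo 5071 genes reached 1 TPM, where the other low protein embryos had at least 6898, and its summed oocyte genes, at 1187 TPM, and 2-cell markers, at 137 TPM, were the highest of its group. The part of these levels in its Gm4340 and AF067063 values was not tested. Without the plate 1 embryo and a control blastocyst described below, the step was -7.39 for Zfp352 and -2.50 for AF067063.

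From the 4-cell stage to the morula the members parted further. AF067063 went on falling, to 0, 11.5 and 72.9 TPM in control and 0, 15.1 and 156 TPM in low protein morulae. Sp110 had 114, 304 and 1608 TPM in control and 119.95, 377 and 1220 TPM in low protein morulae. Tmem92 instead had higher medians in morulae than in 4-cell embryos, with 0, 8.76 and 29.8 TPM in control and 3.17, 11.4 and 51.8 TPM in low protein morulae. Zfp352, Usp17lc and Gm4340 had medians of 0, with highest values of 18.3, 4.99 and 19.8 TPM. AF067063 exceeded Tmem92 in 23 of 38 control and 25 of 35 low protein morulae, so these neighbours overlapped, while Sp110 exceeded AF067063 in all 38 and all 35.

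At this step 3 of 6 members fell in control embryos, where 26.4% of genes fell and 9.93% rose, and 2 of 6 fell and 1 rose in low protein embryos, where 23.7% fell and 11.5% rose. The log2 changes were -3.70 ± 0.28 and -3.003 ± 0.30 for AF067063 and -1.66 ± 0.26 and -1.18 ± 0.23 for Zfp352 in control and low protein embryos, against medians over all genes of -0.33 and -0.25. With quantile normalization, which set these medians to -0.02 and -0.05, 1748 genes fell and 1763 rose in control and 1771 fell and 1777 rose in low protein embryos, and no called member changed direction, but the Zfp352 change in low protein embryos no longer passed (-0.97) and the Tmem92 change in control embryos did (1.19). Sp110 fell in control embryos by 1.17 ± 0.16 on the log2 scale, and had -0.87 ± 0.16 in low protein embryos, which was not called. Tmem92 rose in low protein embryos, by 1.94 ± 0.22 (limma adjusted p = 2.52e-14), and had 0.74 ± 0.24 (limma adjusted p = 0.00471) in control embryos, under the size for a call. Gm4340 and Usp17lc, already near 0, were within 0.19 of no change.

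Sp110 values in morulae depended on the plate. The 5 morulae of plate 2 had 856, 1171 and 1608 TPM, while the 68 morulae of other plates had 114, 320 and 822 TPM, so that the sets did not overlap. In the same 5 morulae Cdx2, a trophectoderm transcription factor, was at 5.99, 12.7 and 18.1 TPM, against a median of 80.8 TPM and a highest value of 246 TPM elsewhere. The keratin Krt8 lay between 67.5 and 241 TPM there and between 1.56 and 1158 TPM elsewhere. The 9 plate 2 embryos at the 4-cell stage had a median Sp110 of 1273 TPM, against 672 TPM in the other 73. The part of development and of plate in this difference was not tested.

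At the blastocyst stage Sp110 fell too. It had 8.82, 21.6 and 104 TPM in control and 5.11, 21.6 and 47.9 TPM in low protein blastocysts, and in both diets every blastocyst lay below every morula. The morula median was 14.1 times the blastocyst median in control and 17.4 times in low protein embryos. AF067063 was at 0, 0 and 9.45 TPM in control and 0, 1.67 and 10.2 TPM in low protein blastocysts, and Tmem92 at 0, 0.88 and 6.55 TPM and 0, 1.21 and 12.2 TPM. The high low protein values of Tmem92 were those of the 5 plate 6 blastocysts, at 6.01 to 12.2 TPM, where the low protein blastocysts of plates 2 and 3 had at most 4.26 TPM. Those 5 had Sp110 at 37.2 to 47.9 TPM, against medians of 19.3 and 11.1 TPM on plates 2 and 3, and the part of their low trophectoderm markers in these values was not tested.

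At this last step 3 of 6 members fell in both diets, where 16.9% of genes fell and 7.42% rose in control embryos and 19.1% fell and 5% rose in low protein embryos. Zfp352, Usp17lc and Gm4340 had morula medians of 0 and thus little room to fall. The log2 changes in control and low protein embryos were -4.24 ± 0.25 and -4.63 ± 0.21 for Sp110, -3.25 ± 0.44 and -2.58 ± 0.39 for AF067063, and -2.85 ± 0.37 and -2.66 ± 0.28 for Tmem92, against medians over all genes of -0.24 and -0.33. With quantile normalization 1228 genes fell and 1211 rose in control and 1020 fell and 1018 rose in low protein embryos, and the 3 members fell as before. Plate 2 held 25 of the 36 blastocysts, and without it the change was -4.26 for AF067063 in control embryos and -1.504 for Tmem92 in low protein embryos, both still called, while the genes that fell over the whole table in control embryos dropped to 861. Without plate 6 the low protein changes were -5.08 for Sp110, -2.56 for AF067063 and -3.45 for Tmem92, and without the plate covariate the control values were -3.47 for Sp110 and -1.99 for Tmem92, all still called.

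Of the 36 blastocysts 1 reached 1 TPM for Zfp352, at 1.12 TPM, and it was also the 1 that reached it for Usp17lc, at 1.54 TPM. This control embryo of plate 2 held 119 TPM of the oocyte growth factor gene Bmp15, where the other control blastocysts had at most 1.41 TPM, and 48.7 TPM of the oocyte homeobox gene Obox5. Its 11 oocyte genes summed to 306 TPM, where the other control blastocysts had at most 17.4 TPM and low protein blastocysts at most 24.1 TPM, and 9124 genes reached 1 TPM in it. Its Cdx2, at 155 TPM, and Krt8, at 4466 TPM, were those of a blastocyst. The part of oocyte RNA in its Zfp352 and Usp17lc values was not tested.

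The 4 embryos at the 8-cell stage were all from plate 3 and were too few for a test. AF067063 was at 42.2 and 58.5 TPM in the control embryos and 48.95 and 82.2 TPM in the low protein embryos, below the 4-cell medians of the same plate (289 and 248 TPM) and above its morula medians (12.5 and 17.6 TPM). Sp110 was at 899.9 and 614 TPM in control and 1095 and 940.0 TPM in low protein 8-cell embryos. Tmem92 was at 1.16 and 4.65 TPM in control and 11.6 and 9.57 TPM in low protein embryos. Zfp352 was at 0 and 2.70 TPM in control and 12.3 and 3.68 TPM in low protein embryos, Usp17lc at 0 in both control and at 3 and 1.68 TPM in the low protein embryos, and Gm4340 at 0 in all 4. The 4-cell medians of Sp110 on that plate were 1133 TPM in control and 764 TPM in low protein embryos, so its 8-cell values lay around its 4-cell level. The low protein 8-cell values of Zfp352, Usp17lc and Tmem92 lay above the highest low protein 4-cell values of plate 3 (2.39, 0.81 and 6.08 TPM). Over all plates those highest values were 21.6, 4.12 and 6.89 TPM, so only the Tmem92 values lay above them. No control 8-cell value of these genes lay above the highest control 4-cell values of plate 3 (5.83, 0 and 5.30 TPM). The 8-cell embryos of each diet came from 1 sire, so diet and sire cannot be told apart here.

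In the 5 late blastocysts, all of plate 7, Zfp352, Usp17lc and Gm4340 were listed at 0. AF067063 was at 7.48 and 15.1 TPM in control and at 5.71, 2.91 and 2.65 TPM in low protein embryos, all above 0, whereas 19 of 36 blastocysts were at 0 and the highest had 10.2 TPM. Sp110 was at 33.7 and 46.9 TPM in control and at 31.6, 8.69 and 42.8 TPM in low protein embryos, within the range of blastocysts. Tmem92 was at 0 in both control embryos and at 3.41, 0 and 4.94 TPM in low protein embryos.

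Among 2-cell embryos the members' levels were correlated. After plate and diet means were taken out, the 15 pairs of members had Pearson correlations of log2(TPM + 1) from 0.26 to 0.71 over 80 embryos, with a median of 0.52. The highest was between AF067063 and Sp110. At the 4-cell stage the median over pairs was 0.12 (from -0.04 to 0.51, highest between AF067063 and Tmem92, 82 embryos), and in morulae it was 0.06 (from -0.14 to 0.45, 73 embryos), with several members near 0. These are descriptions, since embryos share plates and sires. Centred in the same way at the 2-cell stage, Tmem92 had a correlation of 0.59 with the number of genes detected, where the other members had 0.25 to 0.56. With the summed Zscan4 and Tcstv markers, other 2-cell genes, the members had centred correlations of -0.06 to 0.37.

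**Figure D3:**
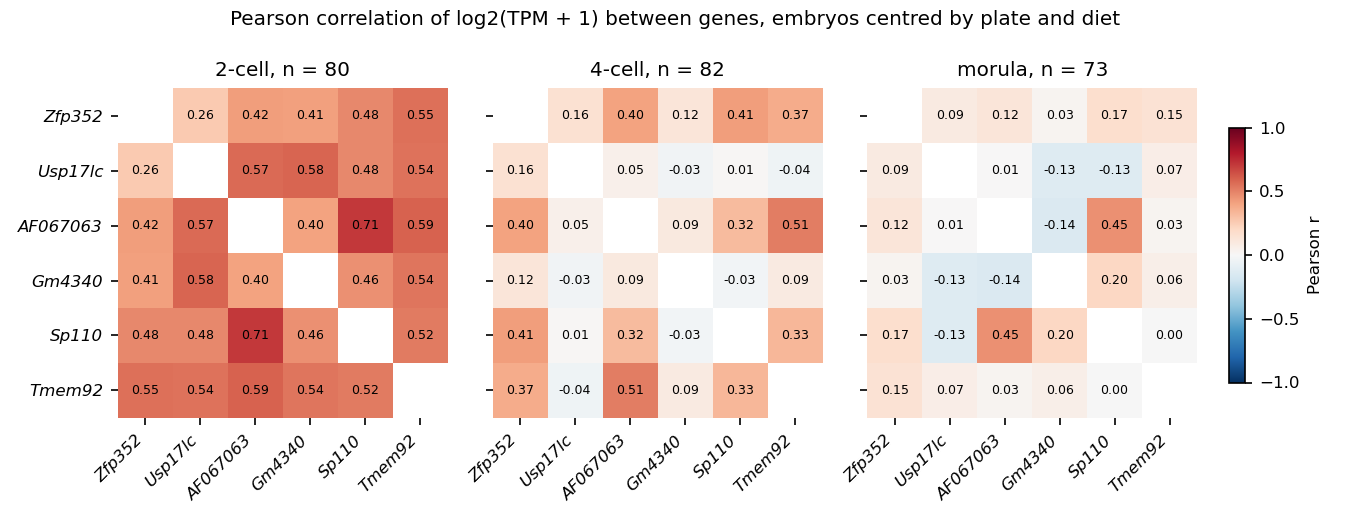
Pearson correlation of log2(TPM + 1) between each pair of genes, with embryos centred by plate and diet, for the 2-cell stage, the 4-cell stage and morulae; colour runs from -1 to 1. All pairs are positive at the 2-cell stage, from 0.26 to 0.71, and most are near 0 in morulae.

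Plates also shifted 2-cell levels. On plate 3, with 7 embryos, the medians were 1496 TPM for AF067063, 769 TPM for Zfp352, 1111 TPM for Sp110 and 1448 TPM for Gm4340, each well above the whole-stage median. On plate 4, with 22 embryos, Sp110 was at 287 TPM, Usp17lc at 76.4 TPM and Tmem92 at 173 TPM. On plate 2 Gm4340 was low, at 370 TPM, while Tmem92 was high, at 473 TPM. Plates differed in sires as well, and these cannot be told apart.

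The genes most like each member were found by Pearson correlation of log2(TPM + 1) over all 280 embryos, where the stages dominate, and over 80 2-cell embryos after centring by plate and diet. Over all embryos the nearest were Itga9 for Zfp352 (0.96), Gm428 for Usp17lc (0.97), Mbd3l2 and Med27 for AF067063 (0.90 each), LOC100502896 for Gm4340 (0.98), Slc16a6 for Sp110 (0.86) and Usp17lc, Gm21312 and Tdpoz3 for Tmem92 (0.90 each). By Spearman correlation over all embryos Itga9 ranked 510 for Zfp352 (0.79). Among 2-cell embryos Zfp352 was nearest Gm4858 (0.81), Kpna2 (0.79) and Drg1 (0.76), and Usp17lc was nearest Csrnp1 (0.76), Gm12794 (0.75) and Pramef25 (0.73). By Spearman correlation Gm4858 kept rank 1 for Zfp352 (0.68), but Kpna2 ranked 34 (0.53) and Drg1 271 (0.38). The 3 genes of Usp17lc ranked 4, 3 and 5. AF067063 was nearest its relative AF067061 (0.75), then Gm20767 and Gm12789 (0.73 each). Gm4340 was nearest Gm21312 (0.82), then Gm5891 and Gm4567 (0.62 each), and Gm21312 shares transcript sequence with it. Sp110 was nearest Rplp0 (0.78), then AF067063 (0.71) and Gm20767 (0.70), and Tmem92 was nearest Gm5891 (0.74), Gm8994 (0.72) and Gm4858 (0.71).

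A list of 45 other genes known from the 2-cell stage served as a comparison, and 36 of them were in the table. From the 2-cell to the 4-cell stage 35 of 36 fell and 0 rose in each diet, with median log2 changes of -6.88 in control and -6.95 in low protein embryos. The list was made of genes known for 2-cell expression, so falls at this step were likely in advance and are no support for the members. It also holds Gm21312, which shares transcript sequence with Gm4340. The largest falls in control embryos were those of Gm21312 (-10.00), BB287469 (-8.92) and E330034G19Rik (-8.39). From the 4-cell stage to the morula 18 fell in control and 16 in low protein embryos, led in control by B020004C17Rik (-6.32), Gm10697 (-5.29) and Tdpoz4 (-4.82). Gm8994 rose at that step in both diets, by 1.09 and 2.22, as Tmem92 did in low protein embryos. At the last step 14 fell in control and 12 in low protein embryos, and 0 rose. Over all genes tested 36.9% fell in control and 37.6% in low protein embryos at the first step, and 34.4% and 34.5% rose. At the morula step 26.4% and 23.7% fell and 9.93% and 11.5% rose, and at the last 16.9% and 19.1% fell and 7.42% and 5% rose. AF067063 thus had a smaller first step than the list's median and Sp110 no fall, and neither difference was tested against the list. The Zscan4 genes, with 2-cell medians of 223 to 677 TPM, were at 0 to 6.57 TPM at the 4-cell stage. Others of the list were still well above 0 there, as AF067063 was, with control 4-cell medians of 89.3 TPM for Gm10697, 57.8 TPM for B020004C17Rik and 51.3 TPM for Tdpoz4.

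Of 8 genes listed as activators of MERVL or Dux 7 were measured. Dux itself was low, with control medians of 7.57 TPM before and 0 after the first step, and fell by 2.66 on the log2 scale in control embryos. Obox5 (-8.20) and Obox3 (-6.92), homeobox genes expressed in oocytes and early embryos, fell at the same step. Dppa2 (3.05) and Dppa4 (2.81), which activate Dux in embryonic stem cells, rose, as did the remodeller gene Smarcad1 (1.26), which was placed on this list although its product is known for silencing endogenous retroviruses. Of the list 3 rose and 3 fell in control embryos and 3 rose and 4 fell in low protein embryos, where 34.4% of all genes rose and 36.9% fell in control embryos, so that counts of this size are near those of the whole table. From the 4-cell stage to the morula 0 rose and 5 and 4 fell, and at the last step 0 rose and 1 fell in each diet, Dppa4 in control and Nelfa in low protein embryos. Over all genes tested 26.4% and 23.7% fell at the morula step and 16.9% and 19.1% at the last.

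All 23 genes of a list of MERVL and Dux repressors were measured, and 10 rose and 6 fell from the 2-cell to the 4-cell stage in control embryos, where 34.4% of all genes rose and 36.9% fell, shares not far from these. The rises were those of Sumo2 (4.59), the histone methyltransferase gene Ehmt2 (3.83), Zfp42 (3.24), L3mbtl2 (2.49), Trim28 (2.10), which encodes a co-repressor of retroviral elements, Ncl (1.95), Hdac1 (1.76), Ehmt1 (1.55), Chaf1b (1.496) and Morc3 (1.25). The falls included those of Atf7ip (-3.73) and Max (-2.77). In low protein embryos 11 rose, E2f6 added, and 6 fell. At the morula step 3 rose (Hdac2, E2f6 and Zfp42) in each diet, while 11 fell in control embryos, led by Pcgf6 (-2.14), Ehmt1 (-1.98) and Smchd1 (-1.89), and 8 fell in low protein embryos. At the last step 0 rose, and 6 fell in control and 9 in low protein embryos. Over all genes tested 26.4% and 23.7% fell at the morula step and 16.9% and 19.1% at the last, in control and low protein embryos.

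Sp110 is induced by interferon in immune cells, and 5 of 11 listed SP100 family and interferon genes were measured. Sp140, its close relative, fell at each step, by 1.27, 1.70 and 1.14 on the log2 scale in control embryos, its median going from 77.7 TPM at the 2-cell stage to 28.4 TPM at the 4-cell stage. Irf1 (-3.33) fell and the ubiquitin-like gene Isg15 (1.19) rose at the first step in control embryos, so 1 rose and 2 fell there, against 0 and 2 of the 5 in low protein embryos, counts near the shares over all genes given above. At the morula step Oas1a rose in both diets, by 2.65 in control embryos, while Isg15, Sp140 and Irf1 fell in control and Isg15 and Sp140 in low protein embryos. At the last step Oas1a and B2m rose and Sp140 fell in control embryos, and B2m rose and Sp140 fell in low protein embryos. The shares over all genes at the morula and last steps are those given above. Sp110, near its 2-cell level at the 4-cell stage, therefore differed in its own values from Sp140, a difference that was not tested.

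Windows of other genes share sequence with those of Sp110 and Gm4340, and the levels of these genes went in both directions. The windows of 29 other genes shared at least 1 run of 20 bases with each of them, which need not be the same run. Of these genes 10 were in the table, sharing from 6 (Pin1rt1) to 270 (Gm21312) such runs with the Gm4340 window. From the 2-cell to the 4-cell stage 5 rose in control embryos, namely Sgk1 (4.82), Pemt (4.40), Arih2 (3.77), Pramel5 (2.72) and Pramel4 (2.68), and 3 fell, namely Gm21312 (-10.00), Gm12789 (-5.04) and D17Ertd648e (-2.30). Esp24 and Pin1rt1 were not called. Over all genes tested 34.4% rose and 36.9% fell, so both directions are what the whole table shows as well. Over both diets Pemt, an enzyme gene of phospholipid synthesis, went from a median of 73.9 TPM to 1512 TPM, while Gm21312 went from 3757 TPM to 2.47 TPM. Gm21312 shared all 270 runs of the Gm4340 window and also shares transcript sequence with Gm4340, so its fall may not be separate from that of Gm4340. In low protein embryos 5 rose and 3 fell as well. At the morula step 1 rose and 4 fell in control and 1 rose and 3 fell in low protein embryos, and at the last step 0 rose and 4 and 7 fell. Over all genes 26.4% and 23.7% fell and 9.93% and 11.5% rose at the morula step. For the last step these shares were 16.9% and 19.1% for falls and 7.42% and 5% for rises. The Usp17lc window shared such runs with Usp17la, Usp17lb and Usp17ld, whose 2-cell medians over both diets were 50.1, 856 and 26.7 TPM.

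**Figure D4:**
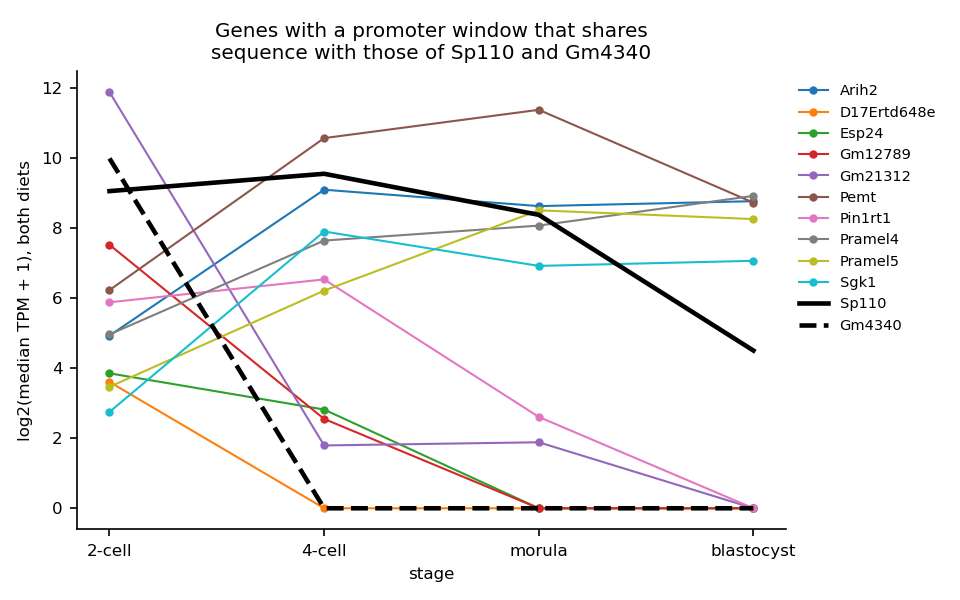
The median TPM over embryos of both diets, plus 1 and on a log2 axis, at the 2-cell, 4-cell, morula and blastocyst stages for Sp110, Gm4340 and the 10 measured genes whose promoter windows share runs of 20 bases with both. The lines part after the 2-cell stage: Gm21312 drops from 3757 to 2.47 TPM at the 4-cell stage while Pemt goes from 73.9 to 1512 TPM.

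No tested member was called for a difference by sire diet after adjustment over all genes. Gm4340 and Usp17lc did not pass the filter on low values at the 4-cell, morula and blastocyst stages and were not tested there. Zfp352 did not pass it in morulae and blastocysts. At the 2-cell stage 0% of 10314 genes tested were called, and 717 had an unadjusted p under 0.05. The fitted values of all 6 members were lower in low protein embryos, at -0.38 ± 0.14 (log2, SE) for AF067063, -0.32 ± 0.16 for Zfp352, -0.32 ± 0.15 for Usp17lc, -0.22 ± 0.18 for Gm4340, -0.15 ± 0.12 for Sp110 and -0.10 ± 0.13 for Tmem92. The limma adjusted p was 0.706 for the first 3, whose unadjusted p was 0.00766, 0.0498 and 0.0330. Within plates the low protein mean was lower on 5 of 6 plates for Zfp352, on 4 for Usp17lc, AF067063, Gm4340 and Sp110, and on 3 for Tmem92. The members are correlated, so their common sign is not 6 separate results.

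At the 4-cell stage 0% of 9820 genes were called, with 511 at an unadjusted p under 0.05. Tmem92 had the clearest difference of the members, -0.77 ± 0.21 on the log2 scale (unadjusted p = 0.000375, limma adjusted p = 0.825). Its low protein mean was lower on 7 of 7 plates that held both diets, by -0.18 to -2.17 on the log2 scale, its group means being 5.07 ± 4.59 TPM (SD, n = 42) in control and 2.31 ± 2.11 TPM (SD, n = 40) in low protein embryos. AF067063 had -0.48 ± 0.21 (limma adjusted p = 0.901) and was also lower on 7 of 7 plates, by -0.0017 to -2.46 on the log2 scale. Plates 2 (-0.0017) and 4 (-0.0042) were near no difference, and the largest, on plate 6, rested on 1 low protein embryo. Zfp352 had -0.24 ± 0.33 and Sp110 -0.11 ± 0.10.

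In morulae 0% of 9552 genes were called, with 996 at an unadjusted p under 0.05. There Tmem92 had 0.61 ± 0.25 (limma adjusted p = 0.409), higher in low protein embryos on 5 of 6 plates, and Sp110 had 0.32 ± 0.12 (limma adjusted p = 0.366), also higher on 5 of 6, where the median over all genes was 0.12. The Tmem92 means were 9.34 ± 6.21 TPM (SD, n = 38) in control and 13.7 ± 10.7 TPM (SD, n = 35) in low protein morulae. In blastocysts 0% of 9378 genes were called, with 322 at an unadjusted p under 0.05, and Sp110 had -0.77 ± 0.30, AF067063 0.56 ± 0.44 and Tmem92 -0.32 ± 0.32, all with adjusted p near 1. Without plate 2 the Sp110 difference was -0.28 and that of Tmem92 0.34.

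**Figure D5:**
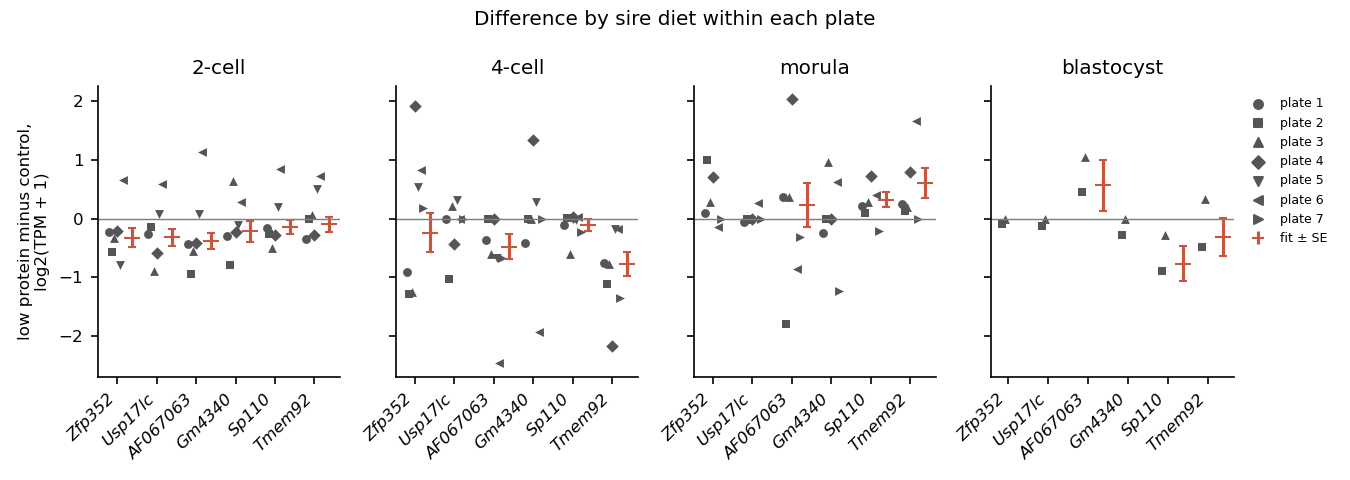
Difference in mean log2(TPM + 1), low protein minus control, within each plate that held both diets, for each gene in 2-cell and 4-cell embryos, morulae and blastocysts; marker shapes are plates, and red bars are the fitted difference ± SE where the gene was tested. For Tmem92 all 7 plates are below 0 at the 4-cell stage and 5 of 6 are above 0 in morulae.

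The sign of the Tmem92 difference thus changed between the 4-cell stage and the morula. The interaction of diet with that step was 1.36 ± 0.32 on the log2 scale and missed the threshold (limma adjusted p = 0.0666). Over 14 alternatives it ran from 1.12 to 2.19 with adjusted p from 0.0440 to 0.584, and it passed without plate 3 (1.41, adjusted p = 0.0440) or without plate 5 (1.57, adjusted p = 0.0451). Of all 11054 genes tested 1, or 0.00905%, was called for this interaction, which was Mif4gd (1.24 ± 0.26, limma adjusted p = 0.0458). For the first and the last step 0% were called. Unadjusted p was under 0.05 for 719, 1064 and 464 genes at the 3 steps. With the mean of each sire as 1 value, an analysis added after the Tmem92 difference was seen, the difference at the 4-cell stage was -1.03 over 8 control and 9 low protein sires (exact permutation test, two-sided, unadjusted p = 0.0111), and in morulae it was 0.81 over 8 and 8 sires (exact permutation test, two-sided, unadjusted p = 0.0524). The permutation test had no plate term and weighed all sires alike, though at the 4-cell stage they had 1 to 14 embryos. One low protein sire, at a mean of 0, was represented by the 1 embryo of plate 8, which held no control embryo.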

How the data were processed

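The authors deposited 1 table of TPM per gene and embryo, already scaled for gene length and library size. Per the submitters' processing notes Bowtie and mm10 were used; versions, the counting step and the treatment of reads that match several genes are not given in the sources used here. Per the labels' protocols single whole embryos were lysed and sequenced with a single-cell RNA-seq and Nextera kit. Stage and diet came from the labels, plate and sire from the table's headers. Values as deposited summed to between 985115 and 998407 TPM per embryo; 15 gene names had turned into dates and were kept as rows.

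Genes with 1 TPM or more in at least 25% of embryos of a stage (for steps and interaction, of at least 1 of the stages) were tested with limma 3.58.1 (R 4.3.3) on log2(TPM + 1), with trend and robust variances, plate as covariate and Benjamini-Hochberg adjustment over all genes tested. The step fits held 4 stages, 1 fit per diet; the 8-cell and late blastocyst embryos entered no test. The fits were tested on simulated data. Levels, correlations, promoter matches and figures were made in Python 3.11.15 with pandas 2.3.3 and scipy 1.17.1. The members, lists and tests were chosen with earlier results of these data known. The 6 members are always named; beside them the 3 nearest genes by correlation, each list's 3 largest falls and every rise, and embryos far above the rest. A named result of 1 list is not reported here. Replicate numbers were given in accession order and pair nothing.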

Additional observations from a re-analysis of the deposited data

Results flagged for a closer look

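Mif4gd, which encodes an MIF4G domain protein and is no member of the MERVL set, was the gene whose step from the 4-cell stage to the morula differed between diets, by 1.24 ± 0.26 (low protein minus control, log2, SE; limma adjusted p = 0.0458). The count of genes called for this interaction ranged from 0 to 11 over the alternatives.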

How the results depend on the processing

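Every call of a member at a step between stages kept its direction under 13 or 14 alternatives per result, and 3 changed sides of the size threshold: with quantile normalization Tmem92 passed in control morulae (1.19) and Zfp352 in low protein morulae did not (-0.97), and without plate 1 Sp110 passed in low protein morulae (-1.09). Sp110 from the 2-cell to the 4-cell stage ran from 0.14 to 0.58 (adjusted p up to 0.372) in control and from 0.13 to 0.60 (up to 0.437) in low protein embryos.

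Counts over the whole table moved more. Quantile normalization, which took the control median of all genes from -0.01 to 0.14 at the first step and from -0.33 to -0.02 at the morula step, gave 1748 falls and 1763 rises at the latter, 1228 falls at the control blastocyst step, and 1020 falls and 1018 rises at the low protein blastocyst step; the share of rises went to 50.2%, 49.7% and 49.95%, from 27.3%, 30.4% and 20.8%. With each plate left out in turn the control blastocyst step had 861 to 1938 falls and 272 to 899 rises, lowest without plate 2.

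Genes called for diet numbered 1 at the 2-cell stage with 0.1 TPM added and 0 to 1 with plates left out; in morulae 1 with quantile normalization, 3 without embryos under 5000 genes and 0 to 2 with plates left out; and 31 in blastocysts with sire as a correlated block. The interaction at the morula step had 5 with 0.1 TPM added, 0 with quantile normalization, with the sire block or without embryos under 5000 genes, and 0 to 11 with plates left out. At the blastocyst step it had 7 with 0.1 TPM added, 5 with quantile normalization, 7 without plate as covariate, 1 with the sire block and 0 to 43 with plates left out. No tested member was called for diet at a stage in any of these, and the Tmem92 interaction was called in the cases given above.

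The diet difference changed sign with a plate left out for Tmem92 at the 2-cell stage (-0.19 to 0.027), Zfp352 at the 4-cell stage (-0.53 to 0.12), AF067063 in morulae (-0.16 to 0.51), Tmem92 in blastocysts (-0.48 to 0.34; 0.31 without plate as covariate) and the Tmem92 interaction at the blastocyst step (-0.68 to 0.89); the cause was not tested. Spearman correlation kept 0 to 3 of the 3 nearest genes. No paired analysis was made, and the replicate numbers only follow accession order. The headers do name the sires, which entered only as a correlated block in an alternative fit and as sire means for Tmem92. Plates that held both diets were compared within plate, as given above. Depth is unknown, so a gene listed at 0 may lie under the detection limit.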
